A study of Mus musculus with 6 samples.

Results

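Phase II conjugating enzymes and the enzymes that remove aldehydes and epoxides were followed in the whole kidney of mice of the inbred strains C57BL/6, here called B6, and BALB/c. The genes were chosen by symbol alone: the UDP-glucuronosyltransferases of the Ugt1a, Ugt2a, Ugt2b and Ugt3a groups, the sulfotransferases (Sult), the flavin monooxygenases (Fmo), the aldehyde dehydrogenases (Aldh) and the epoxide hydrolases (Ephx). There were 71 such genes among 23282 rows, 20 of them Ugt, 19 Sult, 7 Fmo, 21 Aldh and 4 Ephx. Each strain had 3 libraries. The labels give strain and tissue, and name no treatment, age or sex. They do not say whether the libraries of a strain came from separate mice, so the spread between libraries behind the p-values may be technical. The test also draws the variance of each gene toward that of genes at like levels. This prior had 18.4 degrees of freedom, against 4 from a gene's own libraries.

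Glucuronosyltransferases and sulfotransferases attach glucuronic acid or sulfate to hormones, drugs and waste products, which makes them water-soluble so that they can leave in urine or bile. Flavin monooxygenases add oxygen to nitrogen and sulfur atoms, epoxide hydrolases open reactive epoxides with water, and aldehyde dehydrogenases oxidise aldehydes to acids. In the kidney the proximal tubule carries much of this chemistry, because it takes up organic compounds from blood and filtrate.

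Values are read counts scaled to library size (CPM) from libraries that read mainly the 3′ ends of transcripts, so a level stands for transcripts and is not divided by gene length. A log2 fold is the BALB/c mean of log2(CPM + 1) minus that of B6. It is smaller than the true change where levels are low. Libraries held between 8310798 and 10416332 reads. A read was worth between 0.0968 and 0.118 CPM. Eif2s3y, Kdm5d and Uty, genes of the Y chromosome, had no read in any library, and Ddx3y, also of the Y, had 2 reads over the B6 libraries and 8 over the BALB/c libraries, all 8 in replicate 1. Xist, the X inactivation RNA, had 124, 104 and 164 CPM in B6 and 189.9, 193 and 188 CPM in BALB/c, and was called higher there (log2 fold 0.56, limma adjusted p = 0.00444). Exons of Xist overlap those of its antisense partner Tsix. The 12 proximal tubule markers were all detected and summed to 7680 to 8331 CPM in B6 and 7111 to 7963 CPM in BALB/c. Among them 1 rose, Slc5a12, and 2 fell, Slc22a8 and Slc7a13. Their median log2 fold was -0.25, with 10 of 12 folds negative, and the part of this shift in the results that follow was not tested.

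Of the 71 genes, 34 passed the filter of a log2 value of at least 1 in at least 3 libraries. Each of the 34 reached that value in at least 1 library of each strain. Aldh1l2 did so in 1 B6 and 3 BALB/c libraries, and Fmo4 in 3 B6 and 2 BALB/c libraries. Between the strains 10 of the 34 differed, 3 with higher and 7 with lower levels in BALB/c. The call is a limma p under 0.05 after Benjamini-Hochberg adjustment over all genes. That is 29.4% of those tested, against 9.09% of all 13317 genes tested, while 4.17% of all genes were higher and 4.93% lower. The median log2 fold was -0.06 over the 34 and 0.00 over all genes, with 14 positive and 20 negative folds among the 34. The strains did not overlap in 13 of the 34 (38.2%), against 25.4% of all genes. Counts depend on the variance model: with a variance prior that does not follow the expression level, only Ugt2b38, Sult1c2 and Aldh8a1 of the 10 kept their call, and 3.70% of all genes were called. Both strains were aligned to mm10, the B6 genome, and whether reads of BALB/c were lost against it was not tested. In whole tissue, fewer cells of a type and less RNA per cell cannot be told apart.

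**Figure D1:**
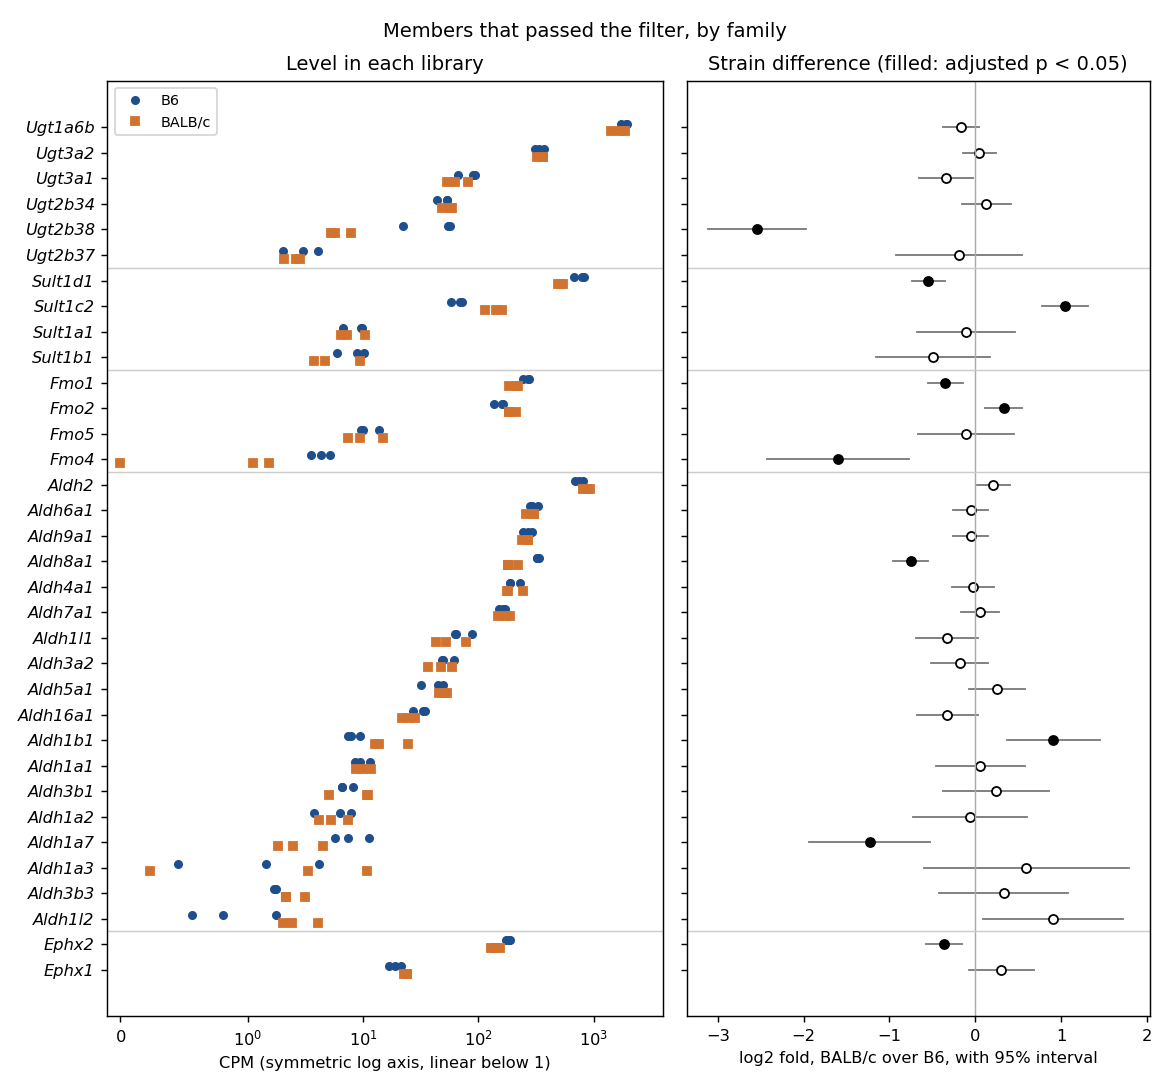
Left, CPM of the 34 tested genes in each library (symmetric log axis; circles B6, squares BALB/c), by family; right, the log2 fold BALB/c over B6 with its 95% interval, filled where the adjusted p was under 0.05. Most intervals cross 0, those of the abundant Ugt1a6b and Ugt3a2 among them, and Ugt2b38 has the fold farthest from 0 at -2.55.

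The summed level of all 71 genes was 6124 ± 86.3 CPM in B6 against 5621 ± 464 CPM in BALB/c (SD, n = 3 each), and the strains overlapped. The Sult sum was 770.2, 901 and 875 CPM in the B6 libraries and 670.4, 681 and 676 CPM in the BALB/c libraries, without overlap. The Ephx sum also lay apart, at 201 ± 7.60 CPM in B6 against 166 ± 11.2 CPM in BALB/c. Sult1d1 alone held 73.4% to 91.2% of the Sult sum in a library, and Ephx2 alone 83.9% to 90.9% of the Ephx sum. Both sums therefore mostly follow a single gene and do not show a change of the whole family. The Aldh sum was 2254 ± 58.0 and 2216 ± 179 CPM, and the Fmo sum 432 ± 27.8 and 412 ± 35.5 CPM. For Ugt the sums were 2389 ± 60.9 and 2151 ± 269.8 CPM.

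The Ugt1a genes need their sequence shown before their values. On chromosome 1 (GRCm38) they are alternative first exons spliced to shared exons, of which Ugt1a1 has 4, and in 7 of the 8 genes the 3′ end is shared. The annotated transcript used for Ugt1a7c ends further downstream and shares none of its 3′ words. The coding sequence of Ugt1a1, whose enzyme conjugates bilirubin, has 1608 bases, and its last 741 are identical with those of Ugt1a6b, which encodes an enzyme for phenols. Over the first 300 coding bases the ungapped identity of this pair was 25.3%. The first 45 coding bases are shown for Ugt1a6b and for Ugt1a1 and Ugt1a9, which differ from it here, far from the end that this assay reads. Ugt1a6a and Ugt1a7c, at 96.7% identity with Ugt1a6b over the first 300 coding bases, are closer to it. Capitals mark bases that differ from Ugt1a6b at the same place.
Ugt1a6b first: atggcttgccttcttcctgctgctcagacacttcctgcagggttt
Ugt1a1 first: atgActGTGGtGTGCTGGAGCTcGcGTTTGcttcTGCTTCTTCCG
Ugt1a9 first: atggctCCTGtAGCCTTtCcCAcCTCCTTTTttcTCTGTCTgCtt

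In the first 45 bases Ugt1a1 differs from Ugt1a6b at 33 and Ugt1a9 at 29. The row of Ugt1a6b held nearly all reads of the 8 Ugt1a rows, between 99.76% and 99.96% in each library. The other 7 rows together had 7, 18 and 38 reads in B6 and 12, 17 and 22 in BALB/c, and Ugt1a6a and Ugt1a9 had none. The Ugt1a6b row is therefore read here as the sum of the Ugt1a transcripts, and which first exons the kidneys used cannot be told from it. How reads of shared exons were assigned to a row is not given in the sources used here.

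As a sum, Ugt1a was the most abundant signal of all 71 genes. The Ugt1a6b row stood at 1909, 1939 and 1750.0 CPM in B6 against 1703, 1412 and 1895 CPM in BALB/c. The ranges overlap, and the log2 fold was -0.17 ± 0.10 (SE), with a 95% interval from -0.38 to 0.04 (limma adjusted p = 0.366). Exons of the noncoding gene Gm20528 on the other strand overlap this locus.

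Ugt2b38 had the largest difference of the 34 tested genes. Ugt2b enzymes conjugate steroids and bile acids, and their genes lie in a cluster on chromosome 5, with Ugt2b38 at 87409942 to 87424203 on the minus strand (GRCm38). It had 56.8, 22.3 and 54.1 CPM in B6 against 5.22, 7.90 and 5.71 CPM in BALB/c. All BALB/c libraries lay below the lowest B6 library, B6 replicate 2, which was itself less than the other B6 libraries. The means were 44.4 ± 19.2 and 6.28 ± 1.43 CPM (SD, n = 3), 7.07 times higher in B6, with a log2 fold of -2.55 (SE 0.28, adjusted p = 7.30e-07 by limma). Leaving out any library kept the call, with folds from -2.97 to -2.32. 

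Ugt2b38 has near copies, so the ends of the coding sequences are shown for its 2 nearest relatives compared and for Ugt2b34, the other abundant Ugt2b gene, with capitals where a base differs from Ugt2b38.
Ugt2b38 last: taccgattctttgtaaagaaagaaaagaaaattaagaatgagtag
Ugt2b5 last: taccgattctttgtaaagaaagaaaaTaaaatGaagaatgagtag
Ugt2b37 last: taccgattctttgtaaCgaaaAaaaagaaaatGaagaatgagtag
Ugt2b34 last: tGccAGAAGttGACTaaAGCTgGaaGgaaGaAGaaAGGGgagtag

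Over the whole coding sequence Ugt2b38 was 97.0% identical with Ugt2b5, 94.1% with Ugt2b37 and 71.4% with Ugt2b34. None of the words of 50 bases taken from the last 300 bases of its transcript occurs in another gene of the annotation. The rows of the near copies held few reads in both strains: Ugt2b5 had 13 reads over the B6 libraries and 3 over the BALB/c libraries. Ugt2b37 stood at 3.04 ± 1.03 CPM in B6 against 2.48 ± 0.4 CPM in BALB/c, a log2 fold of -0.19 (limma adjusted p = 0.825). Ugt2b34, the first gene of the cluster, had 50.1 ± 5.33 and 54.8 ± 5.65 CPM, a log2 fold of 0.13 with a 95% interval from -0.16 to 0.41 (limma adjusted p = 0.665). Ugt2b38 was above Ugt2b34 in B6 replicates 1 and 3 and below it in B6 replicate 2 (22.3 against 53.0 CPM) and in every BALB/c library. B6 replicate 2 also stood apart in the collecting duct marker Aqp2, at 498 CPM against 239.7 and 138 in the other B6 libraries, and in the adipocyte marker Cfd, at 18.3 against 0.88 and 0 CPM. Their part in its Ugt2b38 level was not tested. Ugt2a3, next to Ugt2b38 on one side, lay below the filter with 16, 11 and 7 reads in B6 and 0, 1 and 0 in BALB/c. With no filter beyond 1 read it was called lower, with a log2 fold of -1.07 (limma adjusted p = 0.0207).

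The Ugt3a enzymes use other sugars than glucuronic acid. Ugt3a2 was the second most abundant Ugt row, with 337 ± 30.6 CPM in B6 against 349 ± 22.6 CPM in BALB/c (SD, n = 3), and a log2 fold of 0.05 with a 95% interval from -0.15 to 0.25 (limma adjusted p = 0.832). Its neighbour Ugt3a1, 93.3% identical in coding sequence, had 94.0, 66.8 and 89.7 CPM in B6 against 81.8, 53.2 and 62.7 CPM in BALB/c. These ranges overlap, and the log2 fold of -0.34 ± 0.15 (SE) did not pass the test (limma adjusted p = 0.181), although it did without B6 replicate 2.

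Sulfotransferases changed in both directions within 1 family. Sult1d1, which sulfates catecholamines and eicosanoids, was the most abundant of them and lies on chromosome 5 at 87554645 to 87569027, 130.4 kb beyond Ugt2b38. It had 680.2, 821 and 787 CPM in B6 against 492, 522 and 547 CPM in BALB/c. Every BALB/c library was below every B6 library, with a log2 fold of -0.55 (SE 0.09, adjusted p = 2.76e-04 by limma). The call held without any 1 library.

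Sult1c2, an enzyme for phenols (chromosome 17, 53829637 to 53846339), went the other way. Its levels were 72.4, 57.6 and 69.6 CPM in B6 against 162, 142 and 114 CPM in BALB/c, again with no overlap. The means were 66.5 ± 7.89 and 139 ± 23.9 CPM (SD, n = 3), 2.09 times higher in BALB/c, a log2 fold of 1.05 (SE 0.13, adjusted p = 5.37e-06 by limma). Leaving out any library kept this call too, with folds from 0.93 to 1.18. As a ratio, the Sult1d1 row was 9.39, 14.3 and 11.3 times the Sult1c2 row in the B6 libraries and 3.05, 3.67 and 4.80 times in the BALB/c libraries.

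The sequences before the RefSeq starts of this pair are shown as they stand in the reference, the B6 genome. No BALB/c sequence was examined, and a part of the motifs in the strain differences was not tested. Each run holds the 250 bases before the RefSeq start on the gene's own strand (GRCm38.p6), chr5:87569007-87569256 for Sult1d1 and chr17:53845959-53846208 for Sult1c2. The GENCODE gene of Sult1c2 begins further upstream, at 53846339 on this minus strand, so its window lies inside that gene model. Capitals mark any match, on either strand, to GTTAAT, from the binding site of the tubule factor HNF1, to CAAAGT, from that of HNF4, or to TGACNNNGC, the core of the antioxidant response element.
Sult1d1: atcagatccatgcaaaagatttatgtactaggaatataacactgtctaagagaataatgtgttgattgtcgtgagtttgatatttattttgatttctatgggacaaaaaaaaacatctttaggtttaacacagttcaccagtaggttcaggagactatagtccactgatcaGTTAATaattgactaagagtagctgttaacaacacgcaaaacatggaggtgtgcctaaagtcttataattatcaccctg
Sult1c2: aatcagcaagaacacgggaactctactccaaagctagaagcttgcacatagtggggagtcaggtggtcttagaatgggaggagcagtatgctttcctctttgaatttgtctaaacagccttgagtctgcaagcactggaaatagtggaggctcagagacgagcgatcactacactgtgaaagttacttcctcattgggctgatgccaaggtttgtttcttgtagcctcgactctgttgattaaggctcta

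Sult1d1 has 1 match, to the HNF1 motif, and Sult1c2 has none of the 3 motifs in this window. Over 32851 RefSeq windows of this length, 6.43% held GTTAAT, 12.6% held CAAAGT and 10.2% held TGACNNNGC. RefSeq windows were found for 56 of the 71 genes, 63 windows in all, of which 14 held GTTAAT, 11 CAAAGT and 2 TGACNNNGC. Neighbouring paralogs share ancestry, so these windows are not independent of each other.

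Other sulfotransferases were low. Sult1a1, the general phenol sulfotransferase, had 8.62 ± 1.74 CPM in B6 against 7.99 ± 2.11 CPM in BALB/c (SD, n = 3; limma adjusted p = 0.884), and exons of Sgf29 on the other strand overlap it. Sult1b1, between Ugt2b38 and Sult1d1 on chromosome 5, had 8.34 ± 2.18 and 5.92 ± 3.03 CPM, with a log2 fold of -0.49 and a 95% interval from -1.15 to 0.18 (limma adjusted p = 0.417). Of the 9 Sult2 genes, named for hydroxysteroids, none passed the filter. The oestrogen sulfotransferase gene Sult1e1 had no read.

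**Figure D2:**
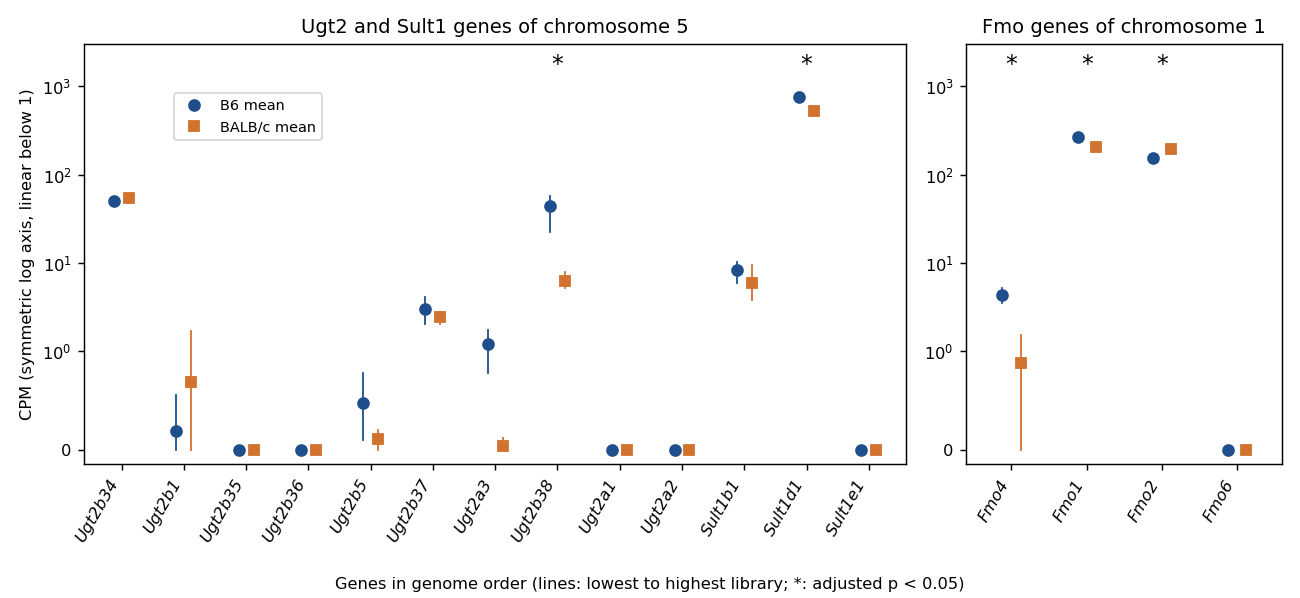
Mean CPM per strain (symmetric log axis; circles B6, squares BALB/c; lines span the 3 libraries) for the 13 Ugt2 and Sult1 genes of chromosome 5 and 4 Fmo genes of chromosome 1, in genome order; an asterisk marks an adjusted p under 0.05. On chromosome 5 the called genes Ugt2b38 and Sult1d1 are both lower in BALB/c and Ugt2b34 is at like levels, while on chromosome 1 Fmo4 and Fmo1 are lower and Fmo2 is higher.

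On the chromosome 5 stretch of 702 kb, 5 of 13 genes passed the filter and 2 were called, both lower in BALB/c. On chromosome 1, Fmo4, Fmo1, Fmo2 and Fmo6 follow each other over 144 kb (GRCm38, 162793188 to 162937515). Of these 4, 3 passed the filter and all 3 were called, not all in the same direction. For scale, 9.09% of all genes tested were called. The 3 Fmo calls were all lost with the variance prior that does not follow the expression level.

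Fmo1 was the most abundant flavin monooxygenase in B6. It had 269.6, 244 and 275 CPM in B6 against 184, 214 and 222 CPM in BALB/c, with no overlap. The log2 fold was -0.35 ± 0.10 (SE; limma adjusted p = 0.0275). Fmo2, next to it, had 161, 138 and 162 CPM in B6 against 186, 184 and 210.4 CPM in BALB/c, also with no overlap, and a log2 fold of 0.33 (SE 0.10, adjusted p = 0.0451 by limma). The Fmo1 row was 1.67, 1.77 and 1.70 times the Fmo2 row in B6 and 0.988, 1.16 and 1.06 times in BALB/c, so the pair was nearer to equal there. Both calls are close to the threshold. That of Fmo1 ended when any of B6 replicates 1 and 3 or BALB/c libraries 1 and 2 was left out (limma adjusted p up to 0.195), and that of Fmo2 without any library other than B6 replicate 3 (up to 0.182).

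Fmo4, the gene on the other side of Fmo1, was low. It had 32, 43 and 46 reads in B6 and 0, 13 and 11 in BALB/c, or 4.34 ± 0.817 and 0.879 ± 0.791 CPM (SD, n = 3). All BALB/c libraries lay below B6, with a log2 fold of -1.60 (SE 0.40, adjusted p = 0.0115 by limma). The call ended without BALB/c replicate 1, the library with no read (limma adjusted p = 0.0782), and without B6 replicate 3 (0.0570). Fmo5, on chromosome 3, had 11.2 ± 2.30 and 10.5 ± 3.93 CPM and a log2 fold of -0.11 (limma adjusted p = 0.869).

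Of the epoxide hydrolases Ephx2 was the most abundant. It encodes the soluble enzyme that turns epoxides of fatty acids, such as the vasoactive epoxyeicosatrienoic acids, into diols (chromosome 14, 66084374 to 66124500). Its levels were 174, 187 and 183 CPM in B6 against 139.8, 129.5 and 153 CPM in BALB/c. The strains did not overlap, and the log2 fold was -0.36 ± 0.10 (SE; limma adjusted p = 0.0227). The call ended when any of B6 replicates 1 and 3 or BALB/c libraries 1 and 2 was left out (limma adjusted p up to 0.126). Ephx1, the microsomal enzyme for xenobiotic epoxides, had 18.8, 21.3 and 16.8 CPM in B6 against 24.1, 24.1 and 22.4 CPM in BALB/c. These did not overlap either, but the log2 fold of 0.30 did not pass the test (95% interval from -0.08 to 0.68, limma adjusted p = 0.368). Exons of Gm36961 overlap those of Ephx1.

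Among the aldehyde dehydrogenases, 18 of 21 passed the filter, 1 rose and 2 fell. Those called were 3 of 18, or 16.7%, against 9.09% of all genes. Aldh8a1, an enzyme of retinal oxidation and of tryptophan breakdown (chromosome 10, 21377291 to 21396585), had the clearest difference. It had 334, 322 and 321 CPM in B6 against 182, 179 and 219.7 CPM in BALB/c. The groups are far apart relative to their spread: 325 ± 7.38 against 194 ± 22.6 CPM (SD, n = 3), 1.68 times higher in B6, with a log2 fold of -0.75 (SE 0.10, adjusted p = 1.02e-05 by limma). It kept its call without any 1 library, with folds from -0.85 to -0.70. Its window before the RefSeq start, chr10:21377050-21377299 on the plus strand, is shown with the same 3 motifs in capitals.
Aldh8a1: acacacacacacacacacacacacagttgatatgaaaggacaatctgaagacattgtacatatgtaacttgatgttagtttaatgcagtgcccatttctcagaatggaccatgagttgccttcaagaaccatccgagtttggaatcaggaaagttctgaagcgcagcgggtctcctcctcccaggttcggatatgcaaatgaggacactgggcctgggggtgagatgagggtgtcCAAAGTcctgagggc

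This window, also from the B6 reference, holds 1 match, to the HNF4 motif, and its part in the fold was not tested.

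Of the 6 Aldh genes whose mean reached 100 CPM, Aldh8a1 was the only 1 called. Aldh2, the mitochondrial enzyme for acetaldehyde and the most abundant of the family, had 692, 818 and 744 CPM in B6 against 805, 873 and 928 CPM in BALB/c. These ranges overlap, and the log2 fold was 0.21 with a 95% interval from 0.02 to 0.40 (limma adjusted p = 0.176). Aldh6a1, of valine breakdown, had a log2 fold of -0.05 (interval -0.25 to 0.15), and Aldh9a1, of carnitine synthesis, -0.05 (-0.25 to 0.15). Aldh4a1, of proline breakdown, had -0.02 (-0.26 to 0.22), and Aldh7a1, of lysine breakdown, 0.06 (-0.16 to 0.28). For these 4 the 95% interval lies within 0.28 of 0 on the log2 scale. Exons of other genes overlap those of Aldh2, Aldh4a1, Aldh6a1 and Aldh7a1, and of Aldh1l1, Aldh5a1 and Aldh16a1 further down, so some reads of these rows may belong to the overlapping gene.

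Aldh1a7 and Aldh1a1 are neighbours on chromosome 19 and near copies, 91.6% identical over 1506 coding bases, and they gave different results. The last 45 coding bases are shown with capitals where Aldh1a7 differs from Aldh1a1. Whether reads reached these bases was not tested.
Aldh1a1 last: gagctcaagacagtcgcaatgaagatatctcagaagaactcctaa
Aldh1a7 last: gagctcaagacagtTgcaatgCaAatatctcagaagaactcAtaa

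No word of 50 bases from the last 300 transcript bases of either gene occurs elsewhere in the annotation. Aldh1a1, which oxidises retinal to retinoic acid, had 8.47, 11.4 and 9.30 CPM in B6 against 9.97, 11.8 and 8.72 CPM in BALB/c, a log2 fold of 0.06 (95% interval from -0.46 to 0.58, limma adjusted p = 0.935). Aldh1a7 had 7.37, 5.64 and 11.3 CPM in B6 against 4.45, 2.48 and 1.80 CPM in BALB/c. All BALB/c libraries were below B6, with a log2 fold of -1.23 (SE 0.34, adjusted p = 0.0234 by limma). This call ended when any of B6 replicates 1 and 3 or BALB/c libraries 2 and 3 was left out (limma adjusted p up to 0.144) and with limma-voom on the reads. That the pair responds unequally was not tested as a difference.

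Aldh1b1, a mitochondrial relative of Aldh2 with 69.5% identity in coding sequence (chromosome 4, 45799022 to 45804604), rose. It had 7.37, 7.76 and 9.42 CPM in B6 against 24.5, 12.6 and 13.6 CPM in BALB/c. BALB/c replicate 1 was the highest, and all BALB/c libraries lay above B6, with a log2 fold of 0.91 (SE 0.26, adjusted p = 0.0283 by limma). Without BALB/c replicate 1 the log2 fold was 0.63 (limma adjusted p = 0.22), and the call also ended without B6 replicate 1 or 2. Aldh1l2, the mitochondrial enzyme that oxidises formyl-tetrahydrofolate, had 1.76, 0.806 and 0.56 CPM in B6 against 2.42, 4.01 and 2.0 CPM in BALB/c. It did not overlap but did not pass the test (log2 fold of 0.91 ± 0.39, limma adjusted p = 0.174). The gene D10Wsu102e overlaps it on the other strand. Aldh1l1, the cytosolic form, had 71.8 ± 14.7 and 58.0 ± 18.2 CPM (SD, n = 3), a log2 fold of -0.33 (limma adjusted p = 0.283). It was called only without BALB/c replicate 3.

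The retinal dehydrogenases other than Aldh8a1 were low. Aldh1a2 had 5.95 ± 2.08 CPM in B6 against 5.59 ± 1.67 CPM in BALB/c (SD, n = 3; limma adjusted p = 0.948). Aldh1a3 varied widely within each strain, with 1.43, 4.13 and 0.449 CPM in B6 against 3.29, 0.236 and 10.7 CPM in BALB/c. Aldh3a2, for fatty aldehydes, had 53.3 ± 7.09 and 47.5 ± 11.4 CPM (limma adjusted p = 0.576), Aldh16a1 31.4 ± 3.74 and 24.9 ± 3.34 (0.282), and Aldh5a1, of GABA breakdown, 42.2 ± 9.16 and 49.8 ± 3.86 (0.378). Aldh3b3 stood at 1.72 ± 0.0399 and 2.45 ± 0.566 CPM with no overlap and was not called (0.671). Aldh3a1, a corneal enzyme, stayed below the filter with 7 reads over B6 and 21 over BALB/c.

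**Figure D3:**
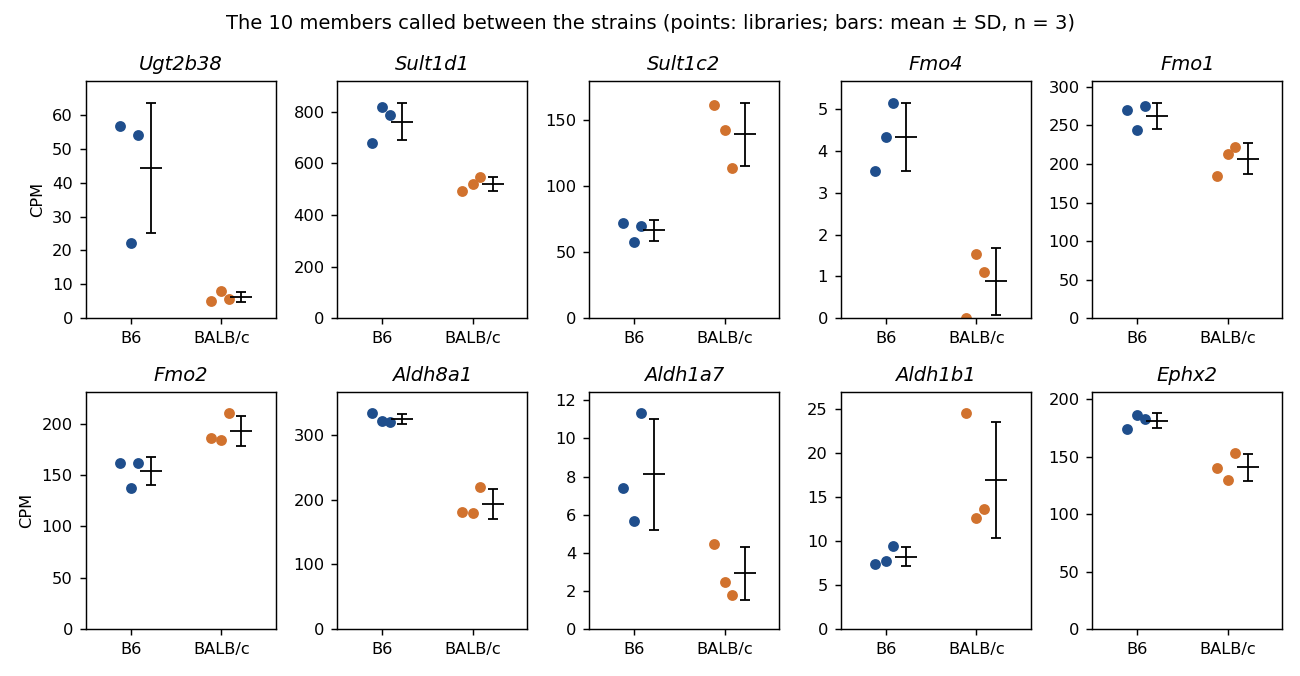
CPM in each library (points) with mean and SD (n = 3) for the 10 genes that differed; every axis starts at 0. In each panel the strains do not overlap, and Ugt2b38, Fmo4, Aldh1a7 and Aldh1b1 show a spread within a strain that is wide relative to its mean.

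In the 37 genes below the filter, 18 had no read in any library, which allows up to between 0.290 and 0.354 CPM in a library (3 reads, counting error only). These 18 were Ephx4, Fmo6, Fmo9, Sult1c1, Sult1e1, Sult2a1, Sult2a2, Sult2a4, Sult2a5, Sult2a6, Sult2a7, Sult3a1, Ugt1a6a, Ugt1a9, Ugt2a1, Ugt2a2, Ugt2b35 and Ugt2b36. For Ugt1a6a and Ugt1a9 all words of the 3′ end are shared with other Ugt1a genes, so their empty rows do not limit those transcripts. Ugt2a1 and Ugt2a2 share all these words only with each other, and both rows were empty. The handling of reads with several alignments is not stated, so no limit is set for these Ugt2a transcripts either. Of the Sult2a genes without a read, 5 share between 9.80% and 78.4% of these words, which weakens the limit by an amount that was not tested. The remaining 19 had between 1 and 37 reads over the B6 libraries and between 0 and 35 over the BALB/c libraries.

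Partner genes came from 8 lists of 145 genes in all, with the donors, transporters and regulators of these enzymes. Of 127 tested, 6 rose and 11 fell, which is 13.4% against 9.09% of all genes. With a variance prior that does not follow the expression level, only Bpnt1, Inmt, Cyp2c44, Glo1 and Aoc1 of these kept their calls. Among 9 genes of UDP-glucuronate supply, 2 rose (22.2%). They were Ugp2, which makes UDP-glucose (79.1 ± 11.1 to 129 ± 0.975 CPM, log2 fold 0.71, limma adjusted p = 2.10e-04), and Slc35d1, which carries UDP-glucuronate into the endoplasmic reticulum (0.56, 0.0192). Exons of Gm12043 on the other strand overlap Ugp2. The Slc35d1 call ended when any of B6 replicates 1 and 3 or BALB/c libraries 2 and 3 was left out (up to 0.0948).

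Among 13 genes of sulfate donor supply, 1 was called (7.69%, against 9.09% of all genes). It was Bpnt1, which clears the product left after sulfate transfer. Bpnt1 went from 148 ± 9.30 to 92.8 ± 6.10 CPM (log2 fold -0.66, limma adjusted p = 1.55e-04). Sult1d1 was lower too and Sult1c2 higher, and whether these changes are related was not tested. Of 18 other conjugating enzymes, 1 fell (5.56%), the methyltransferase gene Inmt, from 258 ± 5.42 to 41.6 ± 4.84 CPM (log2 fold -2.61, limma adjusted p = 6.18e-14). Of 13 genes for epoxide formation and electron supply, 2 fell: the epoxygenase genes Cyp2c44 (log2 fold -2.74, limma adjusted p = 4.84e-10) and Cyp2j5 (-0.44, 0.00531). The list held 5 positive and 8 negative folds. The Cyp2j5 call ended with the filter lowered to 1 read or a prior that ignored expression level (limma adjusted p up to 0.176). Both genes make substrates of the enzyme encoded by Ephx2, which was lower too, and whether these changes are related was not tested.

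Of 20 other oxidoreductases for aldehydes and ketones, 2 rose and 2 fell (20% called, against 9.09% of all genes). Glo1, which detoxifies methylglyoxal, rose from 101 ± 2.25 to 244 ± 8.78 CPM (log2 fold 1.26, limma adjusted p = 2.31e-09), and Aoc1, diamine oxidase, by 1.32 (0.00145). Exons of 3 other genes overlap Glo1, 1 of them, 1700097N02Rik, on its own strand. Cbr1 changed by -0.36 on the log2 scale (limma adjusted p = 0.0341) and Xdh -0.93 (0.0441), and each lost its call without at least 4 of the 6 libraries left out singly and with total-read scaling (up to 0.195 and 0.205 without a library). For Cbr1 these were the B6 and BALB/c libraries numbered 1 and 2, and for Xdh all but B6 replicate 1. Among 19 retinoid genes, Lrat, which esterifies retinol, had a log2 fold of -1.42 (adjusted p = 0.0211 by limma). Its call ended when B6 replicate 1 or 3 or BALB/c library 2 was left out (up to 0.164).

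Of 14 targets of NRF2, the oxidant-sensing factor that drives many conjugating enzymes, 1 rose and 3 fell (28.6% called, against 9.09% of all genes). Negative folds numbered 13 of 14, against 6610 of all 13317 genes, and the median log2 fold was -0.26. The proximal tubule markers had a median of -0.25, and whether the shifts of these sets are related was not tested. Gclc, of glutathione synthesis, had -1.04 (limma adjusted p = 0.00138), and its B6 replicate 2, at 208 CPM, lay below the other B6 libraries at 519 and 491 CPM, as for Ugt2b38. The Gclc call ended with a robust variance prior, with no trend in the variance prior and with no filter beyond 1 read (limma adjusted p up to 0.268). Pgd had -0.46 (limma adjusted p = 0.0232) and Txnrd1 -0.36 (0.0420), while Me1 rose by 0.53 (8.60e-04). Exons of A330041J22Rik on the other strand overlap Me1. The Pgd call ended when any of B6 replicates 1 and 2 or BALB/c libraries 1 and 2 was left out and that of Txnrd1 without any library other than B6 replicate 1 (up to 0.151 and 0.160), and the call of Txnrd1 also with total-read scaling. Of 21 nuclear and xenobiotic regulators only Prlr, the prolactin receptor, was called (4.76% of the list), at -0.33 (limma adjusted p = 0.0478). The call was lost when any of B6 replicates 1 and 3 or BALB/c libraries 1 and 3 was left out (up to 0.203). 

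**Figure D4:**
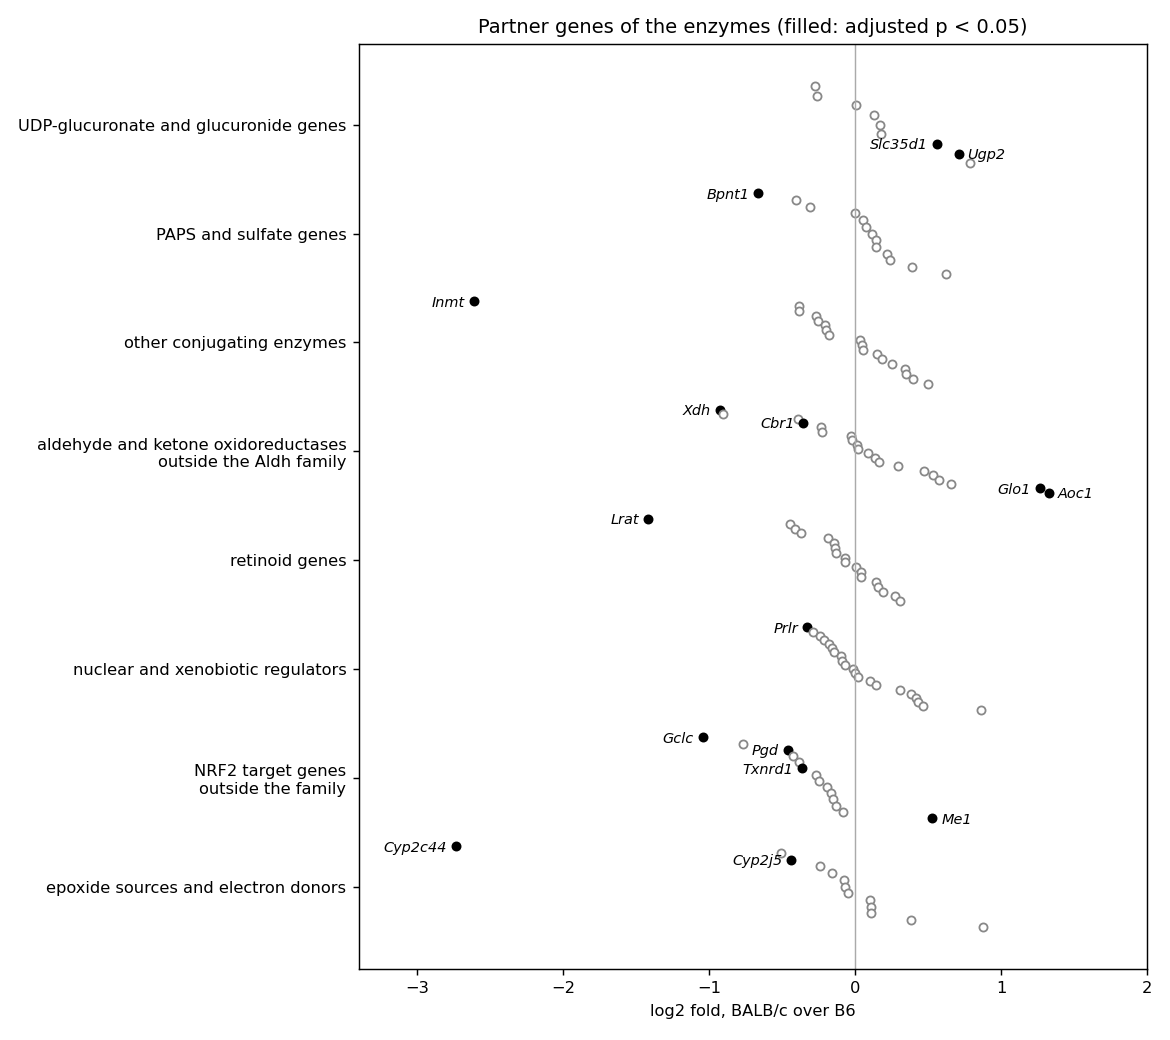
Log2 fold BALB/c over B6 of the tested partner genes reported here, by list; filled points with names had an adjusted p under 0.05. Inmt at -2.61 and Cyp2c44 at -2.74 lie far from the rest, and 13 of the 14 NRF2 targets lie below 0.

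Markers of other cell types moved as follows, and their part in the results above was not tested. The 8 hepatocyte markers summed to 141 to 160 CPM in B6 and 95.8 to 138 CPM in BALB/c. Of 7 tested, 2 were lower, Fgb and Apoa2, and 5 had negative folds, with a median log2 fold of -0.60. Ttr held most of the sum, at 104 CPM in B6 against 98.4 CPM in BALB/c, and was not called (log2 fold -0.09). Serpina1c and Ahsg had positive folds, 0.40 and 0.09, and were not called. Alb, not called either, stood at 14.2 CPM in B6 against 8.99 CPM in BALB/c. The 6 smooth muscle and fibroblast markers summed to 328 to 394 CPM in B6 and 234 to 269 CPM in BALB/c, with Acta2 and Col1a2 lower and a median of -0.51. The 6 leukocyte markers summed to 65.5 to 90.4 and 115 to 151 CPM, with a median of 0.40 over the 3 tested. Csf1r was higher and held most of this sum, at 63.0 CPM in B6 against 118 CPM in BALB/c. Ptprc and Cd68 were not called. Below the filter, Itgax had 51 reads over B6 and 9 over BALB/c, and Cd3e 12 and 6. The 5 endothelial markers summed to 217 to 254 and 192 to 197 CPM, with a median log2 fold of -0.28. Of the 8 adrenal cortex markers, 5 had no read in any library, Cyp11b1, Cyp11b2, Cyp21a1, Mc2r and Nr5a1. The 6 adipocyte markers summed to 0 to 23.9 and 2.12 to 11.1 CPM. The 6 collecting duct and urothelium markers summed to 164 to 537 CPM in B6 and 245 to 328 CPM in BALB/c, with a median log2 fold of -0.12. Of the kidney genes known to differ between sexes, 6 higher in males and 3 higher in females were tested, and 2 of the latter were lower in BALB/c, Slc7a12 and Prlr.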

How the data were processed

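RNA of whole kidney was measured in 6 libraries, 3 per strain. Per the labels' protocols, libraries were made from Trizol-extracted RNA with a Lexogen Quant-Seq kit, a 3′ end method, and per the submitters' processing notes Bowtie2, bedtools and mm10 were used. The use of strand, the annotation and the handling of reads with several alignments are not stated in what was available here. Values were deposited as log2 numbers with 3 decimals. As powers of 2, less 1, they sum to 980188 to 1043599 per library, and up to 20 reads each value lay within 0.1 read of a whole number of steps, so they are read as log2(CPM + 1) with a scaling factor per library, worked out from the values. Reads recovered in this way numbered 8310798 to 10416332 per library, and intervals and floors cover counting error only.

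The test was limma (3.58.1, R 4.3.3) on the deposited log2 values of 13317 genes (log2 value of at least 1 in at least 3 libraries) with strain as the term, a variance prior following the level, and two-sided tests adjusted by Benjamini-Hochberg over all of them. The residual degrees of freedom were 4, and the prior's 18.4. The labels name no batch or date. No library looks like a second copy of another: within a strain, chi-square over degrees of freedom was 7.85 to 16.8, above counting noise.

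Some results, a few gene and sequence entries, are not reported here. Members and lists were chosen with earlier results of these data known. Named genes are all called members, the most abundant of each family, members with no overlap and a log2 fold of at least 0.58 either way, and called genes of each list. Other members were named to account for each family, after their values were seen. Coordinates, exon overlaps and coding sequences came from GENCODE M21 on GRCm38, where all 71 members were placed, and promoters from RefSeq (GRCm38.p6). Words of 50 bases, every 5 bases, from the last 300 bases of 1 transcript per gene were searched in all other transcripts.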

Additional observations from a re-analysis of the deposited data

How the results depend on the processing

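Every called member kept its direction under each alternative run. The counts of members called (10, with 3 higher and 7 lower) were within 1.5 times with genes of mean 5 CPM or more, with 5 CPM added before the log, total-read and upper quartile scaling, a robust variance prior and limma-voom on the recovered reads. With no trend in the variance prior 3 members were called, 1 higher and 2 lower, and 5 partner genes instead of 17. With no filter beyond 1 read 1 was higher and 6 lower, and 8 partner genes were called. That run kept 6 of the 10 calls, lost those of Aldh1a7, Aldh1b1, Fmo1 and Fmo2, and added Ugt2a3. Leaving out 1 library gave 5 to 9 members, 1 to 3 of them higher and 3 to 8 lower, and 11 to 20 partner genes. The fewest, 5, came without B6 replicate 1 and without BALB/c replicate 1. All 10 called members are among the 23 tested members with no shared 3′ end and no exon overlap. No new fit was made for these 23, so no call could change. In the alternative fits the lone changes beyond the called members were Ugt3a1, Aldh1l1 and Ugt2a3. With the replicate block, the replicate number as a term, 7 members (2 higher, 5 lower) and 12 partner genes were called, and Ephx2, Fmo1 and Fmo2 lost their calls. Deviations of libraries with the same number correlated at 0.01, -0.06 and -0.08, so the numbers are not taken as pairs. Among the 11 tested members under 10 CPM 2 were called, and how far depth or the spread between libraries limits the others was not tested. The cause of the changes between settings was not tested.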
